A study of Oryza sativa Japonica Group with 18 samples.

Results

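The genes described here are 6 rice transcription factor genes of the C2H2 zinc finger family that are known for stress responses: ZFP182 (Os03g0820300), ZFP15 (Os03g0820400), ZFP36 (Os03g0437200), ZFP252 (Os12g0583700), ZFP179 (Os01g0839100) and DST (Os03g0786400). They were taken by locus ID from a table of 38610 genes, and all 6 IDs were found in it. The table itself holds IDs alone, and the names used are those under which the genes are known in rice. Of the 6 names, 0 were found in the gene table of assembly ASM3414082v1, so the pairs of name and ID stand unchecked. RNA was sequenced from leaves of japonica rice at the 3-leaf stage, in 3 libraries for each of 6 groups, 18 in all. The groups were plants with an RNA interference construct against OsERF096 (RNAi) after 12 h at 4 °C (cold) or from normal growth (control), plants that overexpress OsERF096 (OX) in the same conditions, and wild type (WT) in both. OsERF096 belongs to the ethylene response factor family. The labels give neither the promoter of the transgenes nor the number of independent transgenic plants, nor whether replicates are separate plants. The p-values therefore speak of the spread among libraries, part or all of which may be technical. OsERF096's own transcript was not analysed here, and the transgenic labels stand unchecked by their target.

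C2H2 zinc finger proteins of this type hold zinc fingers of the TFIIIA kind, whose plant form carries a conserved run of residues that touches DNA. Several act early in the response of rice to salt, drought, cold or oxidative stress. In rice studies ZFP182, ZFP252 and ZFP179 raised stress tolerance when overexpressed, and ZFP36 acts in the antioxidant response to abscisic acid. DST works in the opposite direction: it lowers drought and salt tolerance, acts on stomatal closure through genes that remove hydrogen peroxide, and controls the cytokinin oxidase gene CKX2 in the young panicle.

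Values are the authors' FPKM, which are scaled to gene length and library size, so levels can be compared between genes. Absolute read depth is unknown. From ratios that recur among low values, relative depth ran from 0.896 to 1.44 (median library at 1), each estimate resting on 18 to 59 values. The leaf markers RCA, CAB1R and CAB2R were above 1 FPKM in all 18 libraries, and the shoot meristem genes OSH1 and OSH15 were listed at 0 in all of them. Correlations between libraries of 1 group ranged from 0.915 to 0.988 on the log2 scale. Replicate 2 of the WT controls lay far from the other libraries on the second principal component, and 4 secondary wall genes summed to 12.5 FPKM in it, the lowest of all libraries. Those 4 genes (CESA4, CESA7, CESA9 and BC1) summed to 30.5 to 83.0 FPKM in RNAi cold, against 140 to 176 in RNAi control leaves. They summed to 131 to 234 FPKM in OX cold, against 180 to 236 in OX control leaves, and to 73.2 to 133 in WT cold, against 12.5 to 279 in WT control leaves. The 7 leaf marker genes summed to 24538 to 41804 FPKM in RNAi cold, against 53177 to 57306 in RNAi control leaves, and their sums overlapped between cold and control in OX and WT. At a limma adjusted p under 0.05, 3 of the 7 were lower in the cold in RNAi, 3 in OX and 1 in WT. The shares of all genes tested were 28.1%, 22.4% and 31.7%. The cold response differed between lines for 0 of the 7. The root marker gene LSI1 had 2.54 to 4.22 FPKM in RNAi cold, against 1.54 to 2.39 in RNAi control leaves. It had 1.40 to 7.97 FPKM in OX cold, against 3.17 to 13.7 in OX control leaves, and 0.575 to 0.821 in WT cold, against 1.40 to 14.6 in WT control leaves. LSI1 was thus lower in every WT cold library than in any cold library of the transgenic lines. Cold groups did not overlap for 48.2% of all genes tested in RNAi against WT and 38% in OX against WT. LSI1 fell in the cold in WT by 1.84 (limma adjusted p = 0.0186), and its response was higher in RNAi than in WT by 2.36 (limma adjusted p = 0.0428). The other root marker, Os02g0662000, was listed at 0 in 16 of the 18 libraries, reached at most 0.196 FPKM and did not enter the test. Whether these differences in tissue markers have a part in the results on the zinc finger genes was not tested. In bulk leaf RNA, fewer cells of a type and less RNA per cell cannot be told apart.

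After 12 h at 4 °C, 5 of the 6 genes were higher and DST was lower, in each of the 3 lines. The groups of cold and control libraries did not overlap for any of the 6 genes in any line, which also held for 58.1% of all genes tested in RNAi, 44.7% in OX and 55.4% in WT. ZFP15, ZFP182 and ZFP36 ranked between 2 and 83 from the top of the 23175 genes tested in each line, while ZFP252 and ZFP179 stayed low genes in the cold. The labels do not give the hour of freezing, so a share of time of day cannot be told apart from that of cold.

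**Figure D1:**
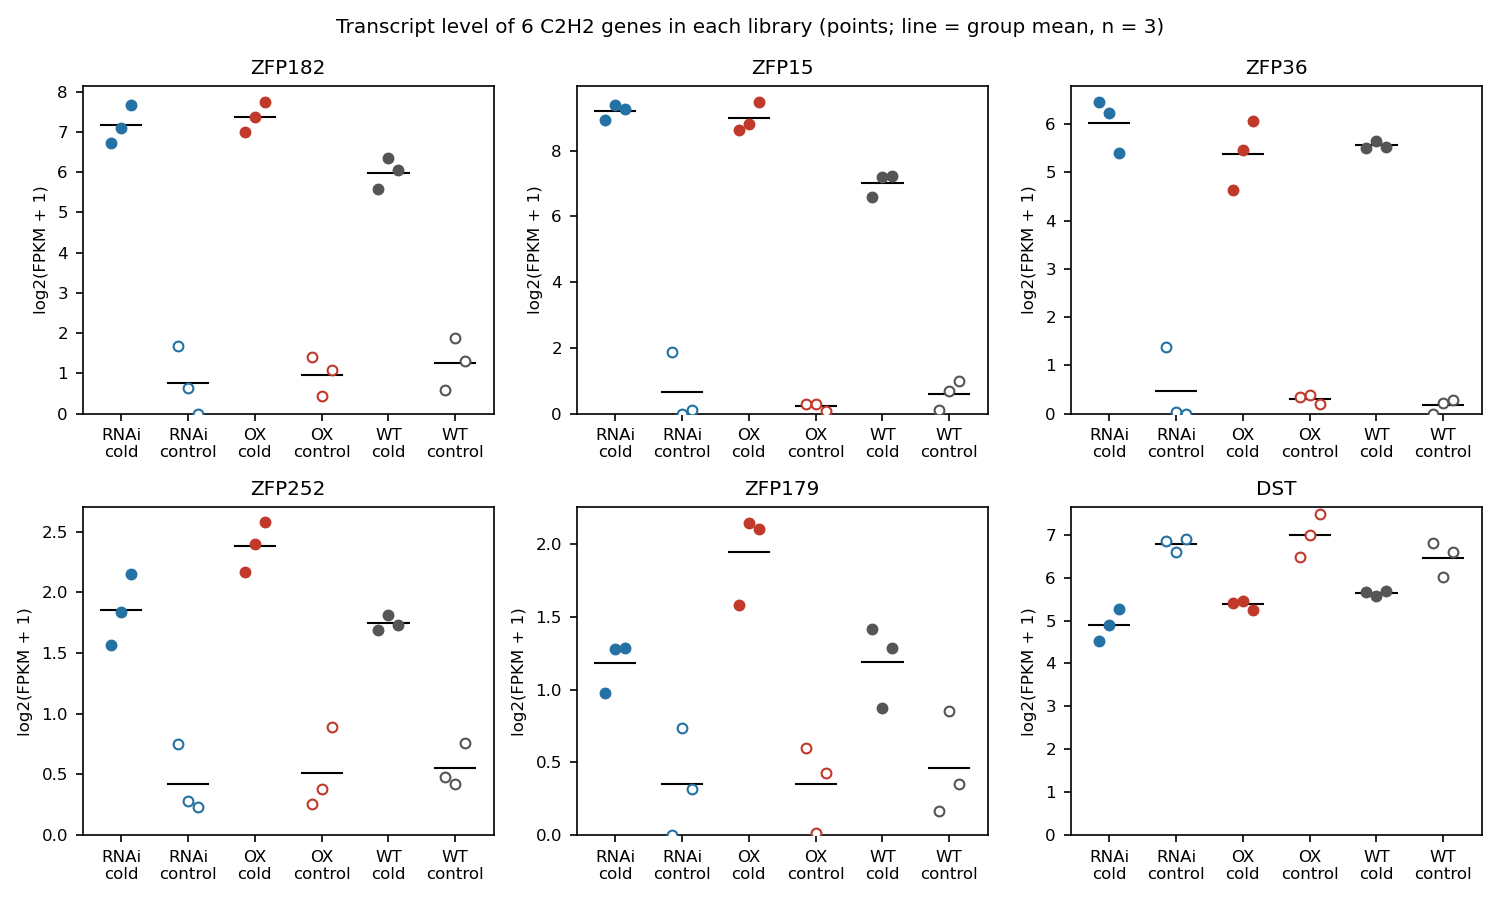
Transcript level of each gene as log2(FPKM + 1) on the y axis, by line and condition on the x axis, with a point per library (filled for cold, open for control) and a line at the mean of 3 libraries. The cold and control points do not overlap for any of the 6 genes in any line, as for 58.1% of all genes tested in RNAi, 44.7% in OX and 55.4% in WT, and of the 6 only DST is lower in the cold.

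ZFP182, whose protein is known for cold, salt and drought tolerance, had 105, 137 and 203 FPKM in RNAi cold leaves, against 2.18, 0.557 and a listed 0 in RNAi control leaves. In OX it had 126, 165 and 215 FPKM in the cold, against 1.63, 0.343 and 1.12 in control leaves. In WT it had 46.6, 80.5 and 65.5 FPKM in the cold, against 0.496, 2.68 and 1.48 in control leaves. Every cold library of either transgenic line lay above every cold WT library. Groups likewise did not overlap for 48.2% of all genes tested in RNAi against WT and 38% in OX against WT. On the log2(FPKM + 1) scale ZFP182 rose by 6.40 ± 0.41 (SE) in RNAi, 6.41 ± 0.41 in OX and 4.74 ± 0.41 in WT, with n = 3 libraries per group. The limma adjusted p was 8.78e-09, 9.82e-09 and 3.77e-07 in that order.

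ZFP15 has the locus number next to ZFP182 on chromosome 3, and it reached the highest level of the 6 genes. It had 491, 675 and 610.3 FPKM in RNAi cold leaves, against 2.69, a listed 0 and 0.0771 in RNAi control leaves. In OX it had 398, 449 and 719 FPKM in the cold, against 0.228, 0.212 and 0.0574 in control leaves. In WT the cold libraries held 95.4, 147 and 149 FPKM, against 0.0766, 0.608 and 0.972 in the controls. In RNAi cold leaves 0.383% of the genes of the table had a higher mean than ZFP15, and in WT cold leaves 2.10%. ZFP15 rose by 8.54 ± 0.39 (SE) in RNAi, 8.76 ± 0.39 in OX and 6.42 ± 0.39 in WT (limma adjusted p = 2.71e-10, 2.33e-10 and 7.87e-09, n = 3 per group). Among the 23175 genes tested, this increase ranked 2 in RNAi, 2 in OX and 21 in WT.

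ZFP36, which acts in the abscisic acid response against oxidative stress, had 87.7, 73.9 and 41.2 FPKM in RNAi cold leaves, against 1.59, 0.0240 and a listed 0 in RNAi control leaves. OX cold leaves held 24.03, 43.3 and 66.0 FPKM, against 0.263, 0.300 and 0.145 in OX control leaves. WT cold leaves held 44.7, 49.2 and 45.0 FPKM, against a listed 0, 0.169 and 0.218 in WT control leaves. The cold libraries of the 3 lines overlapped, and those of WT lay close together between the extremes of the other lines. ZFP36 rose by 5.56 ± 0.37 (SE) in RNAi, 5.09 ± 0.37 in OX and 5.39 ± 0.37 in WT, with a limma adjusted p of at most 3.71e-08 and n = 3 per group.

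ZFP252, known for salt and drought tolerance, stayed under 5 FPKM in every library. It had 1.97, 2.58 and 3.44 FPKM in RNAi cold leaves, against 0.684, 0.217 and 0.176 in RNAi control leaves. In OX it had 3.49, 4.28 and 4.99 FPKM in the cold, against 0.195, 0.303 and 0.854 in control leaves. In WT it had 2.23, 2.51 and 2.32 FPKM in the cold, against 0.392, 0.339 and 0.687 in control leaves. The OX cold libraries were the highest, all above those of RNAi and WT. Groups likewise did not overlap for 29.2% of all genes tested in RNAi against OX and 38% in OX against WT. ZFP252 rose by 1.43 ± 0.20 (SE) in RNAi, 1.87 ± 0.20 in OX and 1.19 ± 0.20 in WT (limma adjusted p = 3.83e-05, 2.96e-06 and 0.000222).

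ZFP179, known for salt tolerance, was the lowest of the 6 genes in the cold. RNAi cold leaves held 0.967, 1.43 and 1.45 FPKM, against a listed 0, 0.669 and 0.247 in RNAi control leaves. OX cold leaves held 1.999, 3.43 and 3.30 FPKM, against 0.518, 0.00991 and 0.346 in OX control leaves. WT cold leaves held 1.67, 0.833 and 1.44 FPKM, against 0.123, 0.808 and 0.277 in WT control leaves. The lowest cold and the highest control value of WT differed little. ZFP179 rose by 0.83 ± 0.24 (SE) in RNAi, 1.596 ± 0.24 in OX and 0.73 ± 0.24 in WT (limma adjusted p = 0.0111, 9.45e-05 and 0.0215). The WT call ended without WT cold replicate 1 or 3 or WT control replicate 1 or 3 (adjusted p up to 0.0886), and the RNAi call without RNAi control replicate 1 (0.0578).

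The pseudocount of 1 holds down the changes of such low genes. With a pseudocount of 0.1, ZFP252 came to 2.72 in RNAi, 3.15 in OX and 2.15 in WT on the log2 scale. ZFP179 came to 2.19 in RNAi, 3.23 in OX and 1.69 in WT, and in WT it was no longer called (adjusted p = 0.0689).

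DST, the gene that lowers stress tolerance, was the highest of the 6 in control leaves of every line and fell in the cold. It had 22.1, 29.0 and 37.6 FPKM in RNAi cold leaves, against 115, 96.2 and 118 in RNAi control leaves. In OX it had 41.7, 42.9 and 37.2 FPKM in the cold, against 88.8, 128 and 179 in control leaves. In WT it had 49.9, 46.6 and 50.2 FPKM in the cold, against 111, 63.3 and 95.9 in control leaves. The cold levels ran from RNAi at the low end to WT at the high end, and the RNAi and OX cold libraries overlapped slightly. DST fell by 1.88 ± 0.24 (SE) in RNAi, 1.62 ± 0.24 in OX and 0.83 ± 0.24 in WT on the log2 scale (limma adjusted p = 1.53e-05, 7.99e-05 and 0.0110). The median of all genes tested moved by -0.16 in RNAi, -0.18 in OX and -0.22 in WT, and DST lay below it in each line. Under median-ratio scaling that median was 0 in RNAi, -0.01 in OX and 0 in WT, under quantile normalization it was -0.10, -0.12 and -0.05, and the DST calls held under both. The WT call ended without WT control replicate 1 (-0.66, adjusted p = 0.0531).

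**Figure D2:**
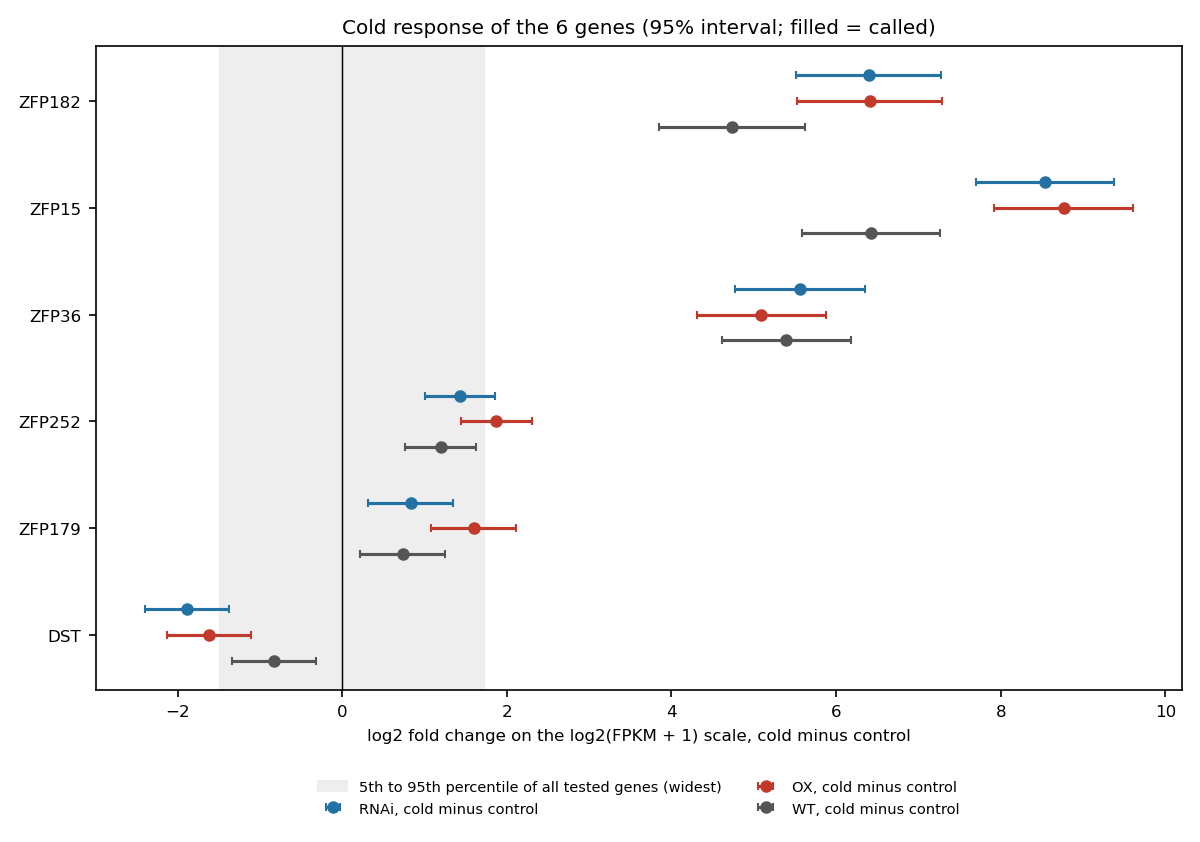
Cold response of the 6 genes, with the log2 fold change (cold minus control, on the log2(FPKM + 1) scale) on the x axis and 1 row per gene on the y axis, with RNAi, OX and WT from top to bottom. Bars are 95% intervals, filled points are called, and the grey band spans the 5th to 95th percentile of all tested genes at its widest over the 3 lines. ZFP15 lies at 8.54 in RNAi, 8.76 in OX and 6.42 in WT, and DST lies below 0 in each line.

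A gene was called at a limma adjusted p under 0.05 over 23175 genes. In RNAi, 5 of the 6 were called higher, against 16.9% of all genes tested, and 1 lower, against 28.1%. In OX 5 were called higher, against 13.6% of all genes, and 1 lower, against 22.4%. In WT 5 were called higher, against 14.0%, and 1 lower, against 31.7%. ZFP15, ZFP36, ZFP252 and ZFP179 entered the test only through their cold libraries, since fewer than 3 control libraries held 1 FPKM of them. The counts are therefore a description, and ZFP182 and DST alone would have entered on their control libraries.

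Before cold, the 6 genes did not differ detectably between the lines. All except DST averaged at most 1.55 FPKM in each control group, where the log2(FPKM + 1) scale shows little of a difference. limma called 0 of 6 for RNAi against WT, where 2.61% of all genes were called, 0 of 6 for OX against WT (4.00%) and 0 of 6 for RNAi against OX (1.73%). At shares this low, 0 of 6 does not set these genes apart. At an unadjusted p under 0.05 the counts were 0, 1 and 0, and the 1 gene was DST, higher in OX than in WT by 0.53 with a 95% interval of 0.01 to 1.04. The intervals of ZFP182 were wide, from -1.37 to 0.39 for RNAi minus WT and from -1.17 to 0.59 for OX minus WT. With library weights, ZFP182 (-0.88, adjusted p = 0.0367) and ZFP252 (-0.39, adjusted p = 0.0440) were called lower in RNAi than in WT. RNAi control replicate 1 held the highest control value of ZFP15 and of ZFP36 among the 9 control libraries.

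In cold leaves, ZFP15 and ZFP182 were higher in both transgenic lines than in WT, ZFP252 was higher in OX, and DST was lower in RNAi. The comparisons with WT share the 3 WT cold libraries. ZFP15 averaged 592 ± 93.7 FPKM in RNAi and 130.5 ± 30.4 FPKM in WT (SD, n = 3 each), a log2 difference of 2.19 ± 0.39 (SE, limma adjusted p = 0.00112). In OX it averaged 522 ± 173 FPKM, a log2 difference from WT of 1.97 ± 0.39 (limma adjusted p = 0.00430). Both ZFP15 calls held when any 1 library was left out and ended with a pseudocount of 0.1 (adjusted p = 0.0822 for RNAi and 0.166 for OX). The differences then were 2.20 and 1.98, close to those above, with an SE of 0.90. That SE is shared over all groups, the controls near 0 FPKM included.

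ZFP182 averaged 148 ± 49.7 FPKM in RNAi and 64.2 ± 16.99 FPKM in WT (SD, n = 3 each), a log2 difference of 1.18 ± 0.41 (SE, limma adjusted p = 0.0458). In OX it averaged 169 ± 44.7 FPKM, a log2 difference from WT of 1.38 ± 0.41 (limma adjusted p = 0.0393). These calls rest on most of their libraries: the RNAi call held only without RNAi cold replicate 1 and the OX call only without OX cold replicate 1. They ended without any other cold library of the compared lines (adjusted p up to 0.163 for RNAi and 0.167 for OX), with a pseudocount of 0.1 (0.312 and 0.299) and without a filter (0.0698 and 0.0593). With a pseudocount of 0.1 the differences were 1.19 for RNAi and 1.40 for OX, with an SE of 0.84. With a term for the replicate number, the adjusted p was 0.0659 for RNAi and 0.0598 for OX.

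DST averaged 29.6 ± 7.77 FPKM in RNAi cold leaves and 48.9 ± 1.99 FPKM in WT cold leaves (SD, n = 3 each), a log2 difference of -0.74 ± 0.24 (SE, limma adjusted p = 0.0324). The RNAi and WT libraries did not overlap, as for 48.2% of all genes tested. The call held without RNAi cold replicate 3 and ended without RNAi cold replicate 1 or 2 or WT cold replicate 1, 2 or 3 (adjusted p up to 0.143). OX averaged 40.6 ± 3.004 FPKM, a log2 difference from WT of -0.26 with a 95% interval of -0.78 to 0.25.

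ZFP252 averaged 4.25 ± 0.752 FPKM in OX cold leaves and 2.35 ± 0.139 FPKM in WT cold leaves (SD, n = 3 each), a log2 difference of 0.64 ± 0.20 (SE, limma adjusted p = 0.0484). This call ended without any 1 of the 6 libraries (adjusted p up to 0.159), and under quantile normalization (0.0681) or median-ratio scaling (0.0504). ZFP179 averaged 2.91 ± 0.790 FPKM in OX and 1.32 ± 0.433 FPKM in WT, and its log2 difference of 0.75 ± 0.24 was just not called (limma adjusted p = 0.0524). It was called with library weights (0.00269) and without OX cold replicate 1 (0.0368). For ZFP36 the 95% interval was -0.32 to 1.25 for RNAi minus WT and -0.95 to 0.61 for OX minus WT.

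**Figure D3:**
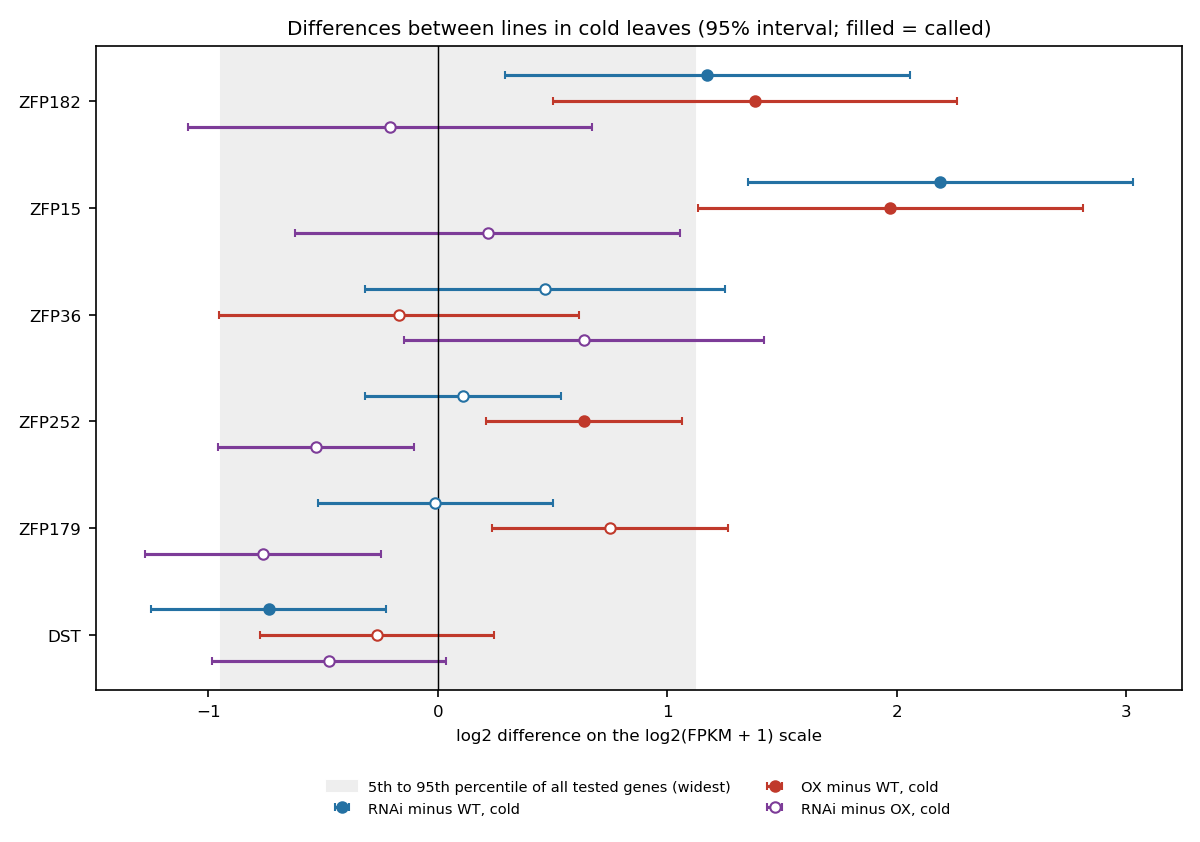
Differences between lines in cold leaves, with the log2 difference on the log2(FPKM + 1) scale on the x axis and 1 row per gene on the y axis. In each row RNAi minus WT, OX minus WT and RNAi minus OX run from top to bottom, with 95% intervals, filled points where called, and a grey band from the 5th to the 95th percentile of all tested genes at its widest. ZFP15 lies at 2.19 and 1.97 against WT, and no difference of RNAi minus OX is called.

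In counts, 3 of the 6 genes were called for RNAi against WT in the cold, where 27.6% of all genes were called. For OX against WT 3 of 6 were called, where 12.9% of all genes were. For RNAi against OX limma called 0 of 6, where 5.94% of all genes were, and 2 of 6 had an unadjusted p under 0.05. Those were ZFP179, lower in RNAi by -0.76 (95% interval -1.28 to -0.25), and ZFP252, lower by -0.53 (95% interval -0.96 to -0.10), and with library weights both were called. ZFP179 was also called without OX cold replicate 1 (adjusted p = 0.0446). For ZFP15 the interval of RNAi minus OX ran from -0.62 to 1.06, and for ZFP182 from -1.09 to 0.67.

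The cold response itself was compared between lines as an interaction. ZFP15 rose more than in WT by 2.12 ± 0.56 (SE) in RNAi (limma adjusted p = 0.0111) and by 2.34 ± 0.56 in OX (limma adjusted p = 0.0185). The RNAi value held without any 1 of its 12 libraries, and the OX value was not called without WT cold replicate 1 (2.14, adjusted p = 0.0539). With a pseudocount of 0.1 neither was called (adjusted p = 0.125 and 0.145). ZFP182 rose more in RNAi than in WT by 1.66 ± 0.59 (limma adjusted p = 0.0424), and in OX the difference was 1.67 ± 0.59 and not called (limma adjusted p = 0.0787). With a pseudocount of 0.1 the RNAi value of ZFP182 was 2.56 (adjusted p = 0.116), and with a term for the replicate number the adjusted p was 0.0611. It kept its call without RNAi cold replicate 1, RNAi control replicate 1, WT cold replicate 2 or WT control replicate 1, and lost it without any other of the 12 libraries (adjusted p up to 0.112).

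DST responded more negatively in RNAi than in WT by -1.06 ± 0.34 (SE, limma adjusted p = 0.0290), and the OX difference of -0.79 ± 0.34 was not called (limma adjusted p = 0.143). The RNAi call ended without RNAi cold replicate 1 or 2, RNAi control replicate 1 or 3, WT cold replicate 1 or WT control replicate 2 (adjusted p up to 0.0757). WT control replicate 2, the library with few secondary wall transcripts, held 63.3 FPKM of DST, the lowest control value, and 2.68 FPKM of ZFP182, the highest. Without it, DST fell by 1.06 and ZFP182 rose by 5.05 in WT. The differences of RNAi minus WT then were -0.82 (adjusted p = 0.0688) for DST and 1.35 (adjusted p = 0.0998) for ZFP182. In all, 3 of 6 genes were called for RNAi minus WT, where 30.5% of all genes were, and 1 of 6 for OX minus WT, where 10.4% were. For RNAi minus OX limma called 0 of 6, where 0.0475% of all genes were called, and 1 of 6 (ZFP179, -0.77) had an unadjusted p under 0.05.

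ZFP182 and ZFP15 carry neighbouring locus numbers, with no other ID of the table between them. The ratio of ZFP15 to ZFP182 was 4.66, 4.95 and 3.01 in the RNAi cold libraries, 3.16, 2.71 and 3.34 in the OX cold libraries, and 2.05, 1.82 and 2.28 in the WT cold libraries. All 6 ratios of the transgenic lines lay above the 3 of WT. The levels of single genes likewise did not overlap for 48.2% of all genes tested in RNAi against WT and 38% in OX against WT. The ratio is formed from the levels of ZFP15 and ZFP182 given above, and its difference between lines was not tested. The next ID before the pair, Os03g0820100, was lower in cold OX leaves by -0.50 (limma adjusted p = 0.0206) and was not called in RNAi (-0.34, adjusted p = 0.0861) or WT (-0.33, adjusted p = 0.0891). The next ID after it, Os03g0820500, was lower in cold WT leaves by -2.32 (limma adjusted p = 0.00159) and was not called in RNAi (0.56, adjusted p = 0.383) or OX (0.07, adjusted p = 0.926). Neither flanking gene was called higher in the cold in any line. The sources used here do not say how reads shared by related genes were assigned.

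**Figure D4:**
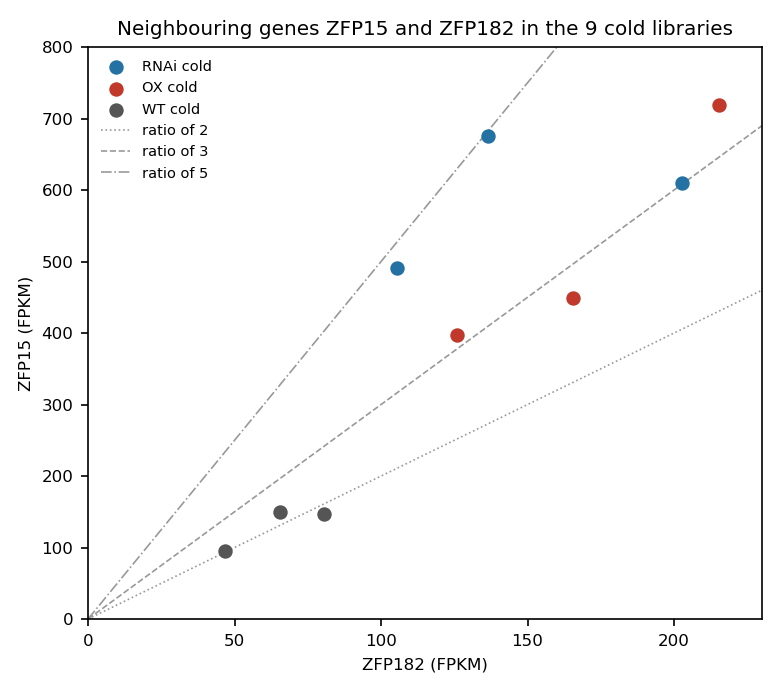
Level of ZFP15 (y axis, FPKM) against that of ZFP182 (x axis, FPKM) in the 9 cold libraries, with guide lines at ratios of 2, 3 and 5. The WT libraries lie at ratios from 1.82 to 2.28 and at lower levels of both genes, and the RNAi and OX libraries at ratios from 2.71 to 4.95. The difference in ratio was not tested.

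Over the 18 libraries, deviations of these genes from their group means on the log2(FPKM + 1) scale correlated at 0.75 between ZFP182 and ZFP15 and at 0.73 between ZFP15 and ZFP36. Over the 15 pairs of the 6 genes the correlations ran from -0.31 to 0.75, and each pair shares its libraries. These deviations include control libraries near 0 FPKM. RNAi control replicate 1 held 2.69 FPKM of ZFP15 and 1.59 FPKM of ZFP36, against at most 0.0771 and 0.0240 in the other RNAi controls. How far the correlations rest on that library was not tested.

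The genes most like each of the 6 were found by Pearson's r over the 18 libraries, which fall into cold and control clusters, so r mostly follows that contrast. These genes are given by ID alone. For ZFP15 they were Os10g0418100 (0.996) and Os01g0955100 (0.994), and for ZFP182 Os07g0580500 and Os01g0863300 (0.993 each). For ZFP36 they were Os03g0734500 (0.996) and Os09g0341600 (0.994), and for ZFP252 Os07g0587500 (0.986) and Os02g0488600 (0.983). ZFP179 was less closely matched, by Os09g0542100 (0.927) and Os01g0224100 (0.918). DST was matched by Os12g0600701 (0.979) and Os04g0678200 (0.975).

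A list of 18 genes that rice studies name as partners or targets of these factors was set beside them, 15 of them with enough transcript to be tested and 15 with a name found in the reference table. The list was chosen with earlier results of these data known, so its counts are a description. In the cold, 8 of the 15 tested genes were called higher and 2 lower in RNAi, against 16.9% and 28.1% of all genes tested. In OX 5 were higher and 2 lower (13.6% and 22.4% of all genes), and in WT 6 higher and 4 lower (14.0% and 31.7%). The median of the 15 moved by 0.50 in RNAi, 0.10 in OX and -0.05 in WT on the log2 scale, beside the medians of all genes given above. DREB1A and DREB1B, the CBF type regulators of the cold response, rose most, by 6.15 and 7.60 in RNAi, 7.22 and 8.49 in OX and 7.98 and 9.05 in WT. MAPK5, a stress kinase of the MAP kinase family, rose by 5.24 ± 0.40 (SE) in RNAi, 4.21 ± 0.40 in OX and 2.74 ± 0.40 in WT (limma adjusted p = 5.50e-08, 7.94e-07 and 6.32e-05). Further genes of the list had names not found in the reference table. Of these, Os10g0456800 rose by 1.59 in RNAi, 1.53 in OX and 1.82 in WT, and Os02g0787300 by 3.59 in RNAi, 3.29 in OX and 2.47 in WT. The last of them, Os06g0203800, was tested and counted above, and it reached at most 1.17 FPKM.

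The genes of this list that were named after their values had been seen are APX1, CATB and MYBS1. APX1, an ascorbate peroxidase gene, rose by 0.58 in RNAi (limma adjusted p = 0.0187) and was not called in OX (-0.00) or WT (-0.45). The catalase gene CATB fell by 0.69 in RNAi, 0.57 in OX and 0.92 in WT, and the MYB factor gene MYBS1 by 1.30, 1.08 and 0.73. The targets LEA3 and CKX2 and the kinase gene DMI3 did not pass the filter. CKX2, which DST controls in the panicle, was listed at 0 in 10 of the 18 leaf libraries and reached at most 0.457 FPKM.

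**Figure D5:**
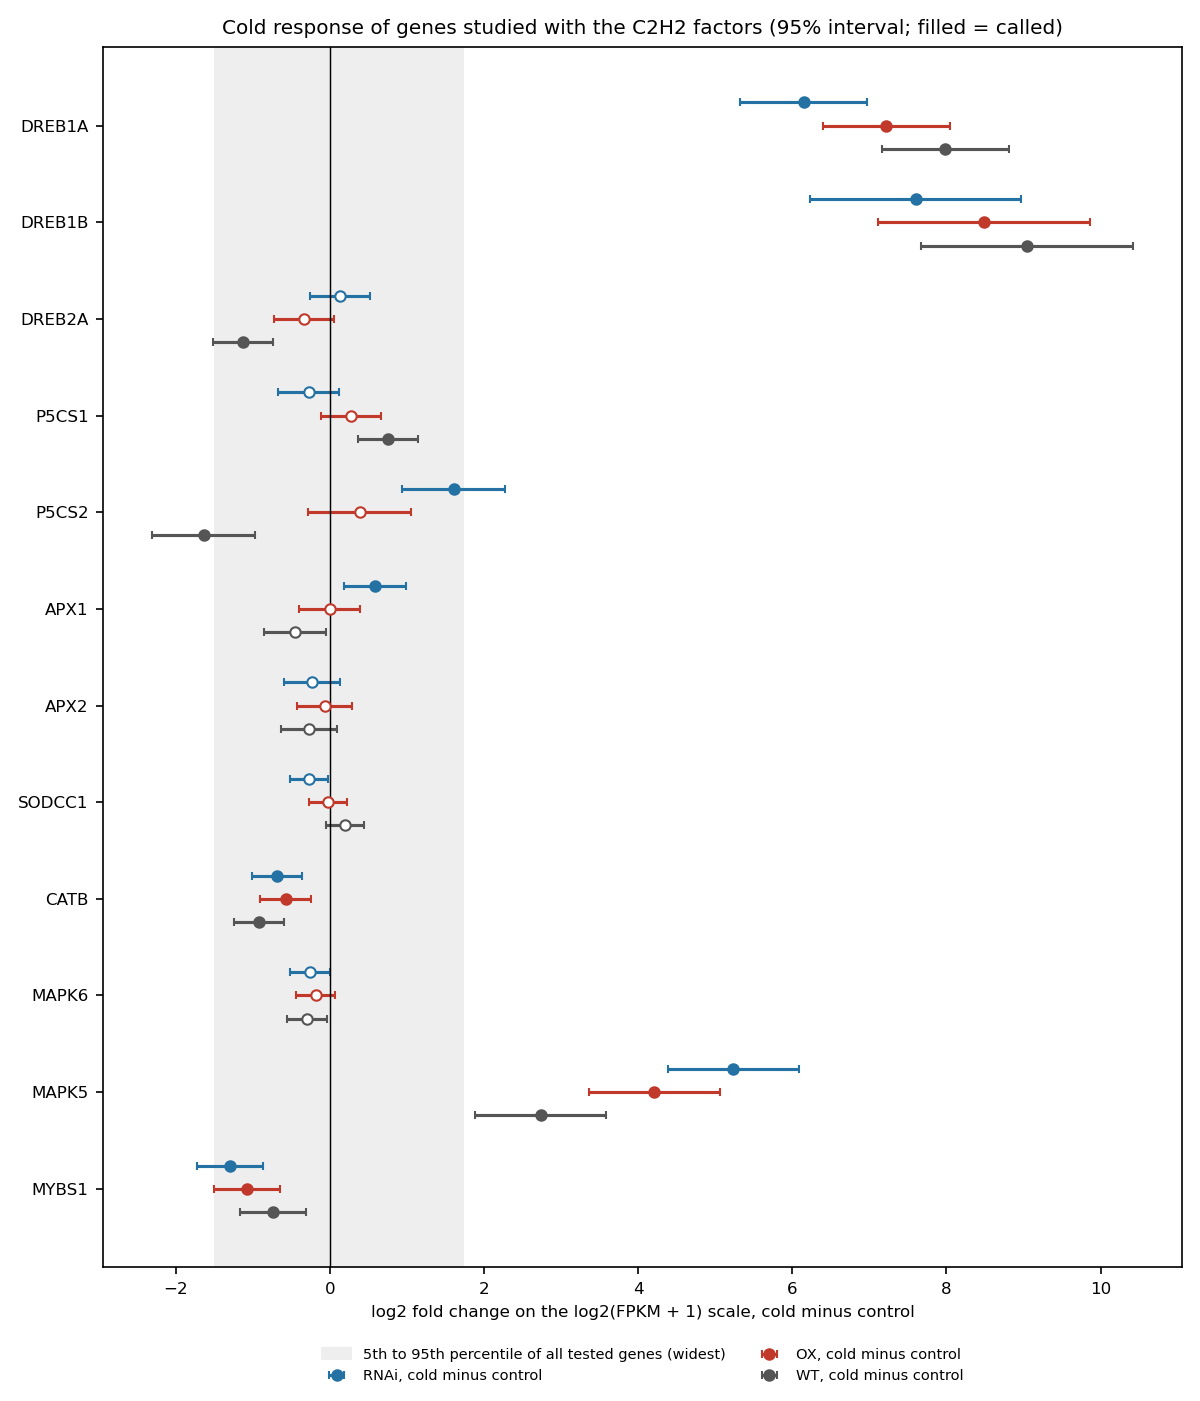
Cold response of the 12 tested genes of the partner list that have a checked name, with the log2 fold change (cold minus control, on the log2(FPKM + 1) scale) on the x axis and 1 row per gene on the y axis, with RNAi, OX and WT from top to bottom. Bars are 95% intervals, filled points are called, and the grey band spans the 5th to 95th percentile of all tested genes at its widest. DREB1A, DREB1B and MAPK5 lie to the right of the band in each line, and P5CS2 lies at 1.61 in RNAi, 0.39 in OX and -1.64 in WT.

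Between lines in the cold, 7 of the 15 tested partner genes were called for RNAi against WT, where 27.6% of all genes were called. Of the 7, 5 were higher (15.7% of all genes) and 2 lower (11.9%). For OX against WT 1 was called, where 12.9% of all genes were. MAPK5 averaged 291 ± 67.0 FPKM in RNAi, 187 ± 56.2 FPKM in OX and 66.1 ± 23.5 FPKM in WT (SD, n = 3 each), log2 differences from WT of 2.16 and 1.51 (limma adjusted p = 0.00134 and 0.0221). P5CS2, an enzyme gene of proline synthesis, was higher in RNAi than in WT by 1.44 (limma adjusted p = 0.00376). DREB1A was lower in RNAi by -1.65 (limma adjusted p = 0.00598), and SODCC1, a superoxide dismutase gene, by -0.74 (limma adjusted p = 0.000483). SODCC1 was also lower in RNAi than in OX by -0.73 (limma adjusted p = 0.00175). This was the 1 call of that comparison on the list, where 5.94% of all genes were called. ZFP15 and ZFP182 were thus higher and DREB1A lower in the same RNAi cold libraries. Those libraries held 199, 177 and 66.2 FPKM of DREB1A, against a mean of 418 FPKM in WT cold leaves.

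As an interaction, the signed change of P5CS2 (cold minus control) was above that of WT by 3.25 ± 0.44 (SE) in RNAi and 2.03 ± 0.44 in OX (limma adjusted p = 0.000270 and 0.0124). It was the 1 call on the list for OX, where 10.4% of all genes were called. In WT P5CS2 fell from a mean of 3.45 FPKM in control to 0.323 FPKM in cold leaves. Its WT control libraries held 1.85, 5.99 and 2.49 FPKM, the highest in replicate 2, the library with few secondary wall transcripts. Calls of partner genes were not recomputed under the alternatives or with single libraries left out. In RNAi the signed change was above that of WT for 5 partner genes and below it for 3, where 18.1% and 12.4% of all genes were called. Among them the difference was 2.50 ± 0.57 for MAPK5, 1.26 ± 0.26 for DREB2A and -1.03 ± 0.26 for P5CS1 (limma adjusted p = 0.00494, 0.00268 and 0.00885). DREB2A fell in WT from a mean of 4.02 FPKM in control to 1.22 FPKM in cold leaves, against 2.41 and 2.75 FPKM in RNAi. The WT control libraries held 3.04, 3.04 and 5.98 FPKM of DREB2A. P5CS1 averaged 31.3 FPKM in control and 52.7 FPKM in cold WT leaves, against 46.2 and 37.9 FPKM in RNAi. Before cold, P5CS2 was lower than in WT by -1.80 in RNAi and -1.34 in OX (limma adjusted p = 0.00817 and 0.0262). This was the 1 call on the list in each comparison, where 2.61% and 4.00% of all genes were called.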

How the data were processed

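RNA from rice leaves was sequenced in 3 lines and 2 conditions, and the 6 groups of 3 libraries follow the labels. The authors deposited 1 table of FPKM values. The submitters' processing notes name Bowtie 0.12.2. Counting tool, genome build and annotation: not given in the sources used here. Read totals are unknown, which allows no counting intervals. Exactly 21 genes with a median above 20 FPKM are at 0 in some library, so a 0 is given as listed and may be a failed estimate.

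Values were analysed as log2(FPKM + 1). The 23175 genes that reached 1 FPKM in 3 or more libraries entered the test. One model of 6 group means over 18 libraries was fitted with limma (version 3.58.1, under R version 4.3.3), its variance prior following mean level, and p-values were adjusted by Benjamini-Hochberg over all genes tested. It gave 12 two-sided comparisons. The procedure was also run on simulated data with normal noise, where changes were set only in genes of higher mean level. That run does not cover low genes such as ZFP252 and ZFP179, and its outcome is not given here. All 6 genes were reported in each comparison, with the genes most alike by Pearson's r, and up to 4 called partner genes per comparison by adjusted p. Partner names come from background knowledge and were looked up in the gene table of assembly ASM3414082v1, where 15 of 18 belonged to a single gene on the same chromosome. A list of 3 further zinc finger genes did not match by name there and was left out of the results above. The names of the 6 genes described here did not match either. Of the 3 left out, 2 were tested, and Os07g0588700 was listed at 0 in all 18 libraries. In the cold 1 was called higher and 1 lower in WT, and 1 higher and 0 lower in OX and in RNAi. The genes and lists were chosen with earlier results of these data known. No genome or sequence was used here. Alternatives were another pseudocount, filters, scalings, no variance trend, library weights, a replicate block, models of only the groups compared, a minimum fold change, and leaving out each library. They were reported for the 6 genes alone, and calls of partner genes were not rechecked.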

Additional observations from a re-analysis of the deposited data

Results flagged for a closer look

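For 3 of the 6 genes the cold response differed between lines by the interaction test, each with n = 3 libraries per group and a limma adjusted p under 0.05. ZFP15 responded more than in WT by 2.12 in RNAi and by 2.34 in OX on the log2 scale. ZFP182 responded more in RNAi than in WT by 1.66. The response of DST was more negative in RNAi than in WT, by -1.06. Of all genes tested, 30.5% were called for RNAi minus WT and 10.4% for OX minus WT. With a pseudocount of 0.1 the calls of ZFP15 and ZFP182 ended, and that of DST held. Among 12 runs that each left out 1 library, ZFP182 kept its call in 4 and DST in 6. The libraries on which these calls rest are given with the results above.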

How the results depend on the processing

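Of 1236 recomputed changes of single genes, 1160 kept their direction and side of the threshold, 66 lost a call, 10 gained one and 0 reversed. The cold calls of ZFP182, ZFP15, ZFP36 and ZFP252 held in each line under each alternative run, except that ZFP252 and ZFP179 had no value under a filter of 5 FPKM. With a pseudocount of 0.1, the number of the 6 genes called was 1 for RNAi against WT in the cold, 0 for OX against WT in the cold, 1 for the RNAi minus WT response and 0 for the OX minus WT response. Without a filter it was 1 for OX against WT in the cold. With library weights it was 2 for RNAi against WT before cold, for RNAi against OX in the cold and for the OX minus WT response. When single libraries were left out it ranged from 1 to 2 for RNAi against WT in the cold, from 1 to 3 for OX against WT in the cold and from 0 to 1 for RNAi against OX in the cold. It ranged from 1 to 3 for the RNAi minus WT response and from 0 to 2 for the OX minus WT response. Under other scalings the median of all genes moved by over 0.1 for cold against control in each line, for OX against WT in the cold and for both responses against WT. The cause of these changes was not tested. A replicate block ended 3 calls, all of ZFP182 and given above, and changed no other. Deviations of libraries with the same number correlated at -0.60 to 0.41 over 45 pairs, and the numbers were not taken to pair the samples. Depth is unknown, which limits what can be said of genes near 0 FPKM.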
